A study of Mus musculus with 30 samples.

Results

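A set of 85 genes formed a short-lived wave in wildtype cells: their transcripts rose within 24 h of Wnt pathway activation and had fallen again 24 h later. They were chosen by their wildtype values in the count table, as follows. Counts were scaled to the library's total count, giving the usual CPM values, and averaged over the wildtype libraries of a stage, with d4 taken from replicates 1 and 3. A gene was kept when its d3 mean was 10 CPM or more, its d3 mean was at least 2 times its d2 mean, and its d4 mean was at least 2-fold below its d3 mean. Hox, Wnt, Cdx and Fgf genes and a short set of neuromesodermal genes were left out of the list by name, which removed Nkx1-2, T, Wnt10a, Wnt3, Wnt3a, Wnt6 and Wnt8a. The 85 remaining genes came from 54134 rows of the table and comprised 80 protein-coding genes, 3 processed transcripts, 1 antisense transcript and 1 symbol not matched to GENCODE. The question put to them was whether loss of Nr6a1 prolongs or blunts the peak.

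RNA was measured in mouse Bruce4 embryonic stem cells differentiated towards neuromesodermal progenitors (NMPs), in 30 libraries of 10 groups with 3 replicates each. Wildtype cells and Nr6a1-/- cells were both grown with FGF2 from day 0 and received the Wnt agonist CHIR99021 on d2, and were collected on d2 before the agonist, on d2.5 after 12 h of it, on d3 after 24 h, and on d4. The fifth group of each genotype received Gdf11 from d3 and was collected on d4 (d4G). The Nr6a1-/- libraries come from 1 CRISPR/Cas9 clone carrying a deletion in exon 4 on each allele, so genotype cannot be told apart from the history of that clone. The study's methods call the replicates biological, but no source used here says whether they were separate differentiations, so p-values measure only the spread between these libraries. Libraries were primed at the 3′ end of polyadenylated RNA, so Nr6a1 counts do not check an internal deletion and none are used here for that.

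Nr6a1 is an orphan nuclear receptor of early embryos that mostly represses transcription. In embryonic stem cells moved out of the epiblast state with FGF, a Wnt agonist switches on primitive streak genes within hours, and cells that keep both FGF and Wnt input settle into an NMP state, from which spinal cord and paraxial mesoderm are made. Genes that flare at this step include streak transcription factors, secreted inhibitors of Nodal, activin and Wnt that form feedback loops, and metabolic and cell-surface genes. Gdf11 is a ligand of the TGF-beta family that signals through Smad2/3 and moves such cells from a trunk to a tail programme.

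Library totals ran from 1570714 to 3688197 counts with a median of 2366002, so that 3 counts, the floor used here for a gene at 0, correspond to 0.813 to 1.91 CPM, which covers counting error only. The wildtype d4 replicate 2 library stood apart from its group. Its summed level of 4 epiblast markers (Pou5f1, Fgf5, Otx2 and Nanog) was 33.1 CPM against 5.46 and 10.4 CPM in the other d4 wildtype libraries. The counts, lists and leading genes that use d4 wildtype are therefore also given without it. Of the 5 NMP markers, T, which marks streak and NMPs, was 296 to 317 CPM in d3 wildtype and 469 to 556 CPM in d3 Nr6a1-/- libraries, from 2.3 to 5.51 CPM at d2 in either genotype. The d3 means in wildtype and Nr6a1-/- libraries were 129 and 222 CPM for Nkx1-2, 93.9 and 116 CPM for Cdx2, and 13 and 25.8 CPM for Tbx6, each with a mean under 5 CPM at d2. Sox2, which NMPs share with epiblast and neural cells, was lower at d3 than at d2, with means of 78.5 against 120 CPM in wildtype and 76 against 142 CPM in Nr6a1-/- libraries. Of the endoderm markers, Sox17 was 19.7 to 21.5 CPM at d3 in wildtype and 0.382 to 2.58 CPM in Nr6a1-/- libraries, Foxa2 3.84 to 5.19 against 1.15 to 3.61 CPM, and Gata6 3.99 to 6.01 against 1.29 to 2.29 CPM. Neural markers (Sox1, Pax6 and Irx3) summed to 13 to 13.6 CPM at d3 in wildtype and 4.81 to 8.4 CPM in Nr6a1-/- libraries. The part of these minor lineages in the genotype differences described here was not tested, and in bulk RNA fewer cells of a type and less RNA per cell cannot be told apart.

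Letters in the promoters of these genes are given as a description, and no difference in share was tested. RefSeq promoter windows (250 bases before to 50 after the start, GRCm38.p6) were matched to 56 of the 85 genes by symbol, giving 65 windows. The TCF/LEF letters CTTTGAT or CTTTGAA, searched on both strands, were present in 13.8% of those windows and in 8.65% of all 32851 windows. Counted by gene, they were present in 8 of the 56 (14.3%), against 9.88% of all genes. Snail-type E-boxes (CACCTG) were in 27.7% against 20.2%, the T-box letters TCACACCT in 1.54% against 1.28%, and the letters TCAAGGTCA, the motif that Nr6a1 is known to bind, in 1.54% against 0.423%. Each of the last 2 shares is 1 window. An E-box match can overlap a T-box match. Median GC content was 61% in the 65 windows and 52.7% in all windows. The stretches are printed because their genes reappear in the results: Ascl4, with 2 TCF/LEF matches, Epha2 and Scn2b, with 1 each in the stretch, and Efemp2, the single gene with the Nr6a1 motif, whose window lies in an intron of a longer GENCODE transcript of that gene. Capitals mark the TCF/LEF letters, or in Efemp2 the Nr6a1 motif, on either strand. No stretch runs past the start of its window's gene. The Ascl4 and Epha2 stretches are the 250 bases before that start, and those of Scn2b and Efemp2 are shorter, at 156 and 234 bases. The Scn2b stretch stops where the GENCODE gene begins.
Ascl4, chr10:85927152-85927401, plus strand: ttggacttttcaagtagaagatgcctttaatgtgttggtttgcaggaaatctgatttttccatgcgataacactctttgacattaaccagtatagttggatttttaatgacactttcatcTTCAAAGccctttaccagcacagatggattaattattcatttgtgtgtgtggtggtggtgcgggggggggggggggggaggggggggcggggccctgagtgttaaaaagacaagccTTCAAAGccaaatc
Epha2, chr4:141300971-141301220, plus strand: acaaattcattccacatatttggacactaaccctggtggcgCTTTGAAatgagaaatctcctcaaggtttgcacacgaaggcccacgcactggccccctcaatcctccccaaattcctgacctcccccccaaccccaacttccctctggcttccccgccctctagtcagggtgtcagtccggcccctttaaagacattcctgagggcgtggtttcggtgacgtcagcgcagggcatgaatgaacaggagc
Scn2b, chr9:45117626-45117781, plus strand: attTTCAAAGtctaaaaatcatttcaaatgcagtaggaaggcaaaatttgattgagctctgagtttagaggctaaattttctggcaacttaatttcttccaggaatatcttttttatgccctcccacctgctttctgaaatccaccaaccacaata
Efemp2, chr19:5474454-5474687, plus strand: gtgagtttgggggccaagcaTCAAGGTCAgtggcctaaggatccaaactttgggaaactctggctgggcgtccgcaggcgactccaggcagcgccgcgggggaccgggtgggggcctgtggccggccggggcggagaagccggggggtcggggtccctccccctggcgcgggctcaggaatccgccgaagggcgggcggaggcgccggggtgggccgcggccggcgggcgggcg
A match is a description of letters in a window and not a measured binding site.

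In wildtype cells, the values that chose the genes spanned a wide range of levels. Grsf1, an RNA-binding protein of mitochondrial RNA granules, had the highest d3 level, with 529, 517 and 506 CPM at d3 against 26.5, 38.6 and 38.8 CPM at d2 and 165, 151 and 145 CPM at d4. Next in level came Slc2a3, the glucose transporter GLUT3, Ldhb, the B subunit of lactate dehydrogenase, Tspan13, a tetraspanin, Fst (follistatin), a secreted inhibitor of activin, and Mixl1, a homeobox factor of the primitive streak. At the other end lay Pcdh7 (10.29 CPM) and Col1a1 (10.69 CPM), just inside the d3 minimum, with Mnx1 (9.925 CPM) and Creb3l1 (9.937 CPM) just outside. Just inside the required rise were 5430405H02Rik (2.013-fold) and Mapkapk3 (2.017-fold), with Scly (1.96-fold) and CT010467.1 (1.957-fold) outside. Nudt7 and Efemp2, with d4 over d3 ratios of 0.4961 and 0.5, lay just inside the required fall, and Vangl1 (0.5032) and Car13 (0.5054) outside. The median member rose 3.44-fold from d2 to d3 and came down to 0.384 of its d3 level at d4. Of the 85, 46 had made at least 50% of their rise by d2.5, and 19 were already at or above their d3 mean then, among them Fst, Ascl4, Dkk4, Rtl8b and Ntn1. In contrast, 11 had made under 10% of their rise at d2.5, such as Aplnr, Ptgs1, Arl4d and Cldn4.

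Most members rose and fell in Nr6a1-/- cells too, in libraries that took no part in choosing them. From d2 to d3, 67 of 85 members passed as higher in Nr6a1-/- cells and 0 as lower, where 16.6% of all 12149 tested genes were called higher (edgeR quasi-likelihood test, Benjamini-Hochberg adjusted p below 0.05). The members' median log2 fold change was 1.56, against 0.02 over all genes. From d3 to d4, 62 members were called lower and 2 higher, against 12.3% and 13.6% of all genes, with a median of -1.28 for members and 0.00 for all genes. Both changes were called for 56 members, the rise alone for 11, the fall alone for 6, and neither for 12. All 85 members passed the filter on low counts, also when the wildtype d3 libraries were left out of it. Of the 62 lower calls 55, and of the 67 higher calls 58, passed under every alternative that was run for them. Measured by the rule itself, 41 of the 85 genes met all of its conditions in Nr6a1-/- cells, 59 rising at least 2-fold and 55 falling at least 2-fold.

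**Figure D1:**
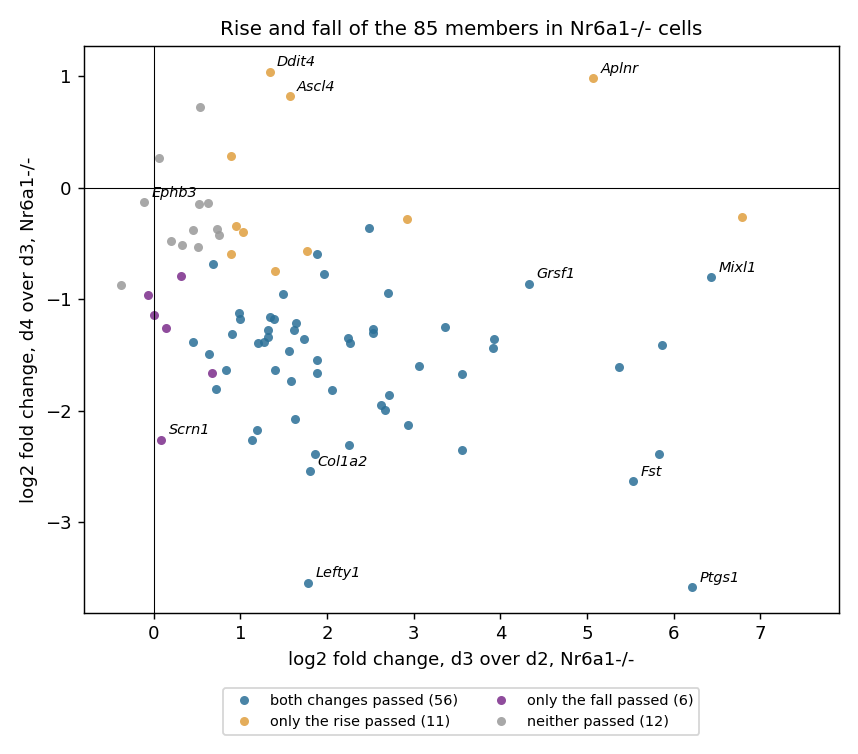
Each point is 1 of the 85 genes, placed by its log2 fold change from d2 to d3 (horizontal) and from d3 to d4 (vertical) in Nr6a1-/- cells, both from the edgeR fit. Colours give which change passed the test, and 56 points passed both, in the lower right, while Ddit4 and Aplnr sit above 0 on the vertical axis with a further rise that passed. Horizontal values of genes with hardly any d2 counts, such as Ptgs1 and Aplnr, depend on the prior count of the fit.

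Krt19 and Anxa3 are examples of members with overlapping peaks in the 2 genotypes. Krt19 (keratin 19) reached 37.3, 39.9 and 40.1 CPM at d3 in Nr6a1-/- and 33.6, 43 and 38.7 CPM in wildtype libraries, and then fell to 13.7, 10.9 and 6.76 and to 16.4, 17.4 and 14.5 CPM. Anxa3 (annexin A3) went from 28.8, 27.9 and 22.2 CPM to 5.87, 4.28 and 3.8 CPM in Nr6a1-/- cells, with wildtype at 26.4, 31.9 and 29.9 and then 7.97, 4.61 and 2.03 CPM. No genotype difference was called for either gene at any stage, and both fell in Nr6a1-/- cells (by 1.81 ± 0.21 and 2.39 ± 0.28 on the log2 scale).

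The 12 genes with neither change called in Nr6a1-/- cells were 5430405H02Rik, Cdh3, Col1a1, Ctnnd2, Ephb3, Fam160b2, Fermt1, Fxyd4, Nfic, Nhlrc3, Slc38a9 and Wdr81. All of them were below 50 CPM at d3 in every library, where counting error is large. Ctnnd2, a delta-catenin of cell junctions, was high at d2.5 in Nr6a1-/- cells (17.6, 12.5 and 9.05 CPM) and had dropped to 3.2, 7.73 and 6.11 CPM at d3, where wildtype stood at 14.9, 15.3 and 18 CPM (log2 difference at d3 -1.52 ± 0.36, adjusted p = 0.00355). Col1a1, a chain of type I collagen, likewise had 11.1, 8.57 and 6.88 CPM at d2.5 and 4.01, 5.15 and 5.73 CPM at d3 in Nr6a1-/- cells. Wildtype d3 values chose the genes, which favours a lower Nr6a1-/- level at d3, so the adjusted p-value of Ctnnd2 is a description. The 11 genes with the rise alone included 4930556M19Rik, Aplnr, Ascl4, Ddit4, Efemp2, Kit, Nab1, Nudt7, Rec8 and Rtl8b, and the 6 with the fall alone were Cldn4, Fam212b, Ifi30, Pqlc3, Scrn1 and Trp53inp1.

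Fst, a secreted activin inhibitor (minus strand of chromosome 13, 114452290 to 114458951, GRCm38), fell less in Nr6a1-/- cells. In wildtype cells it went from 189, 176 and 171 CPM at d3 to 5.04, 7.32 and 8.98 CPM at d4. In Nr6a1-/- cells it went from 365, 382 and 432 CPM to 53.6, 52.8 and 74 CPM. No library of one genotype overlapped the other at either stage. Wildtype d3 and d4 values chose the genes, which favours a higher Nr6a1-/- level at d4. Adjusted p-values for genotype at these stages are therefore descriptions, for Fst and for the genes below. At d4 Fst was higher in Nr6a1-/- cells by a log2 fold change of 3.05 ± 0.16 (SE, adjusted p = 1.97e-17), or 3.04 without d4 wildtype replicate 2. Within Nr6a1-/- cells it still fell by 2.63 ± 0.11 on the log2 scale (adjusted p = 1.16e-20), so the decline was smaller rather than missing.

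Mixl1, the streak homeobox factor (minus strand of chromosome 1, 180693043 to 180697034), kept a large part of its d3 level. Its Nr6a1-/- libraries gave 162, 224 and 224 CPM at d3 and 68, 160 and 109 CPM at d4, and its wildtype libraries 150, 149 and 165 CPM and then 16.4, 27.4 and 22.3 CPM. The d3 levels were close while the d4 levels did not overlap, with a log2 difference of 2.31 ± 0.21 at d4 (adjusted p = 1.09e-10). Grsf1 was higher in Nr6a1-/- cells at d3 as well as at d4: it reached 709, 679 and 879 CPM at d3, above every wildtype d3 library (log2 difference 0.53 ± 0.10, adjusted p = 0.000433), and was still at 348, 348 and 494 CPM at d4, above every wildtype d4 library (log2 fold change 1.38 ± 0.11, adjusted p = 2.3e-12). Scn2b, a beta subunit of voltage-gated sodium channels, ran from 127, 146 and 183 CPM at d3 to 47.3, 60.4 and 61.3 CPM at d4 in Nr6a1-/- cells, where wildtype fell from 82.1, 62 and 96.5 CPM to 6.71, 8.95 and 6.38 CPM.

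Mob1b declined little in Nr6a1-/- cells. Mob1b, a coactivator of the Hippo kinases, stood at 105, 112 and 105 CPM at d3 and 66.1, 88 and 85.8 CPM at d4, against 63.9, 79.6 and 64.6 CPM and then 32.3, 27.7 and 29 CPM in wildtype. Its Nr6a1-/- fall of 0.36 on the log2 scale (adjusted p = 0.0145) was lost without d3 Nr6a1-/- replicate 2 or d4 Nr6a1-/- replicate 1, with no filter on low counts, and in a fit of the libraries compared alone (adjusted p up to 0.0718).

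Aplnr and Ddit4 went on rising. Aplnr, the apelin receptor of early mesoderm, was 18.4, 20.2 and 21.4 CPM at d3 and 28.2, 35.7 and 49 CPM at d4 in Nr6a1-/- cells, a log2 rise of 0.98 ± 0.21 (adjusted p = 0.000512). Its wildtype libraries fell from 11.5, 10.6 and 10.4 CPM to 4.2, 4.07 and 5.22 CPM. Ddit4, a stress- and hypoxia-induced inhibitor of mTORC1 (minus strand of chromosome 10, 59949669 to 59951834), went from 113, 113 and 138 CPM to 241, 195 and 274 CPM in Nr6a1-/- cells (log2 rise 1.04 ± 0.12, adjusted p = 2.6e-08) and from 118, 100 and 111 CPM to 57.1, 52.6 and 51.6 CPM in wildtype. At d3 the Ddit4 groups overlapped, and the genotypes separated only afterwards. At d4 the log2 difference between genotypes was 3.06 ± 0.26 for Aplnr and 2.16 ± 0.13 for Ddit4. Leaving out d4 wildtype replicate 2 gave 2.49 for Mixl1, 3.10 for Scn2b, 2.96 for Aplnr and 2.14 for Ddit4. Over all alternatives the d4 difference lay between 1.22 and 1.48 for Grsf1 and between 1.39 and 1.53 for Mob1b, and the calls of all 6 genes passed under each.

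**Figure D2:**
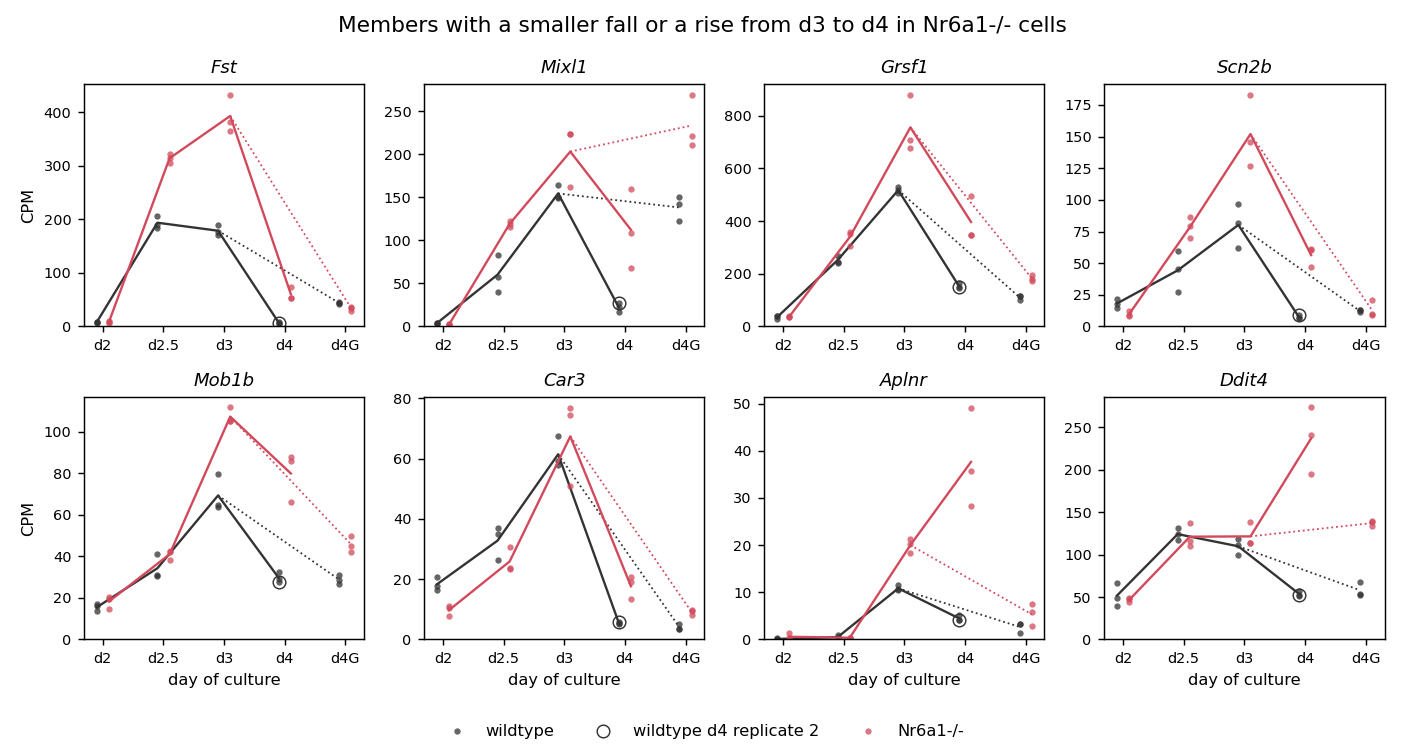
CPM of 8 genes (vertical, linear from 0) in each library by stage (horizontal, stages evenly spaced and not to scale in time), wildtype in dark grey and Nr6a1-/- in red. Points are single libraries, 3 per group, the ring marks d4 wildtype replicate 2, solid lines join the means of d2 to d4, and dotted lines join d3 to d4G. At d4 the Nr6a1-/- points of all 8 genes lie above the wildtype points, and for Aplnr and Ddit4 they also lie above the Nr6a1-/- d3 points.

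Across the 85 genes, the fall from d3 to d4 differed between genotypes in 18, being smaller in Nr6a1-/- cells in 16 and larger in 2, where 2.97% and 2.75% of all genes were called in those directions. The median difference was 0.36 on the log2 scale over members and 0.01 over all genes. These figures use the wildtype d3 and d4 values that chose the genes, and choosing genes for a low wildtype d4 favours this direction, so the share is a description. Of the 16, 10 passed under every alternative, among them Grsf1, Fst, Mixl1, Ddit4, Scn2b, Mob1b, Car3, Ascl4 and Aplnr. Ascl4, Fxyd4 and Col1a1, which are among the 16, were also called lower at d3 in Nr6a1-/- cells. Their smaller fall was thus measured from a lower d3 level. Without d4 wildtype replicate 2, 12 were called smaller and 2 larger. The 2 genes with a larger fall were S100a10, a partner of annexin A2, and Col1a2, the partner chain of Col1a1, whose call was lost under 7 of 17 alternatives (adjusted p up to 0.119). S100a10 ended at 31.3, 32.4 and 29.2 CPM in d4 Nr6a1-/- libraries, below the 43.2, 56.7 and 51.3 CPM of wildtype (log2 difference -0.70 ± 0.14, adjusted p = 0.000424, and -0.61 without d4 wildtype replicate 2).

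In the level at d4 itself, 25 members (29.4%) passed as higher in Nr6a1-/- cells and 12 (14.1%) as lower, against 9.72% and 9.17% of all genes. The d4 wildtype values chose the genes, so these counts too are a description. The members' median log2 difference at d4 was only 0.10, and the median d4 level was 0.384 of the d3 level in wildtype and 0.39 in Nr6a1-/- cells. Without d4 wildtype replicate 2 the counts were 19 and 8, against 7.79% and 7.28% of all genes, and without d4 Nr6a1-/- replicate 2 the lower count was 7. Besides the genes already given, Rtl8b, a retrotransposon-derived gene, held 23.5, 29 and 23.2 CPM in Nr6a1-/- cells where wildtype held 4.2, 4.34 and 4.64 CPM. Rtl8b has near-identical copies on the X chromosome, and how reads were divided among them is not stated. Car3, a carbonic anhydrase, measured 13.3, 19 and 20.7 CPM in Nr6a1-/- and 5.04, 5.96 and 5.51 CPM in wildtype libraries. Nt5e, the ecto-5′-nucleotidase CD73, gave 7.43, 10.9 and 14.8 CPM against 4.62, 2.44 and 2.9 CPM, and Dock11, an activator of the GTPase Cdc42, 32.1, 48.5 and 37.2 CPM against 23.9, 15.5 and 12.2 CPM. All 4 genes were called under every alternative with no overlap at d4, and without d4 wildtype replicate 2 their log2 differences were 2.49 for Rtl8b, 1.72 for Car3, 1.60 for Nt5e and 1.18 for Dock11. Dock11 had also been higher at d3 (76.9, 77.3 and 82.5 against 39.9, 38.9 and 31.1 CPM), as had Tmem185a, a membrane protein gene (43.3, 38.2 and 51.6 against 24, 21.7 and 21.9 CPM). Efemp2, an extracellular matrix glycoprotein of the fibulin family and the gene with the Nr6a1 motif printed above, was higher in Nr6a1-/- cells already at d2 (9.68, 9.51 and 14.1 against 4.63, 4.01 and 1.97 CPM), rose to 22, 20.6 and 21.4 CPM at d3 and did not come down, with 17.2, 37.6 and 20.7 CPM at d4 against 5.46, 8.41 and 7.82 CPM in wildtype (log2 difference at d4 1.75 ± 0.26, adjusted p = 2.69e-06, and 1.86 without d4 wildtype replicate 2). The d2 call of Efemp2 was lost without d2 wildtype replicate 3 (adjusted p = 0.0682). Efemp2 exons overlap Mus81 on the opposite strand, and no source used here states that counting used strand, so reads of the pair cannot be told apart.

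Another set was lower at d3 in Nr6a1-/- cells. In all, 17 members were called higher and 25 lower at d3 in Nr6a1-/- cells, where 4.49% and 6.29% of all genes were called, and the members' median was -0.11 against 0.00. Genes picked for a high wildtype d3 value are favoured to look lower in the other genotype. These counts, and the adjusted p-values of single genes at d3, are thus again a description. A lower d3 level is also not the same as a smaller rise. Of the 25, only Trp53inp1, Ifi30, Cldn4 and Pqlc3 also had a smaller d2 to d3 rise called. The higher count was 10 without d3 Nr6a1-/- replicate 2 and 11 without d3 wildtype replicate 3. Trp53inp1, a p53-induced gene of stress and autophagy (plus strand of chromosome 4, 11156431 to 11174379), was the most abundant of the 25. It rose from 54.7, 57.1 and 72 CPM at d2 to 131, 152 and 157 CPM at d3 in wildtype, while Nr6a1-/- libraries gave 62.7, 62.5 and 68 CPM and then 69.7, 65.7 and 83.6 CPM. The d3 groups did not overlap (log2 difference -1.02 ± 0.11, adjusted p = 3.19e-08). In Nr6a1-/- cells alone the d2 to d3 change was 0.14 ± 0.12 (adjusted p = 0.423) although a rise at d2.5 was called (0.49 ± 0.12, adjusted p = 0.00178), and the fall after d3 was called as well (by 1.26 ± 0.14, adjusted p = 4.11e-09).

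Ifi30, a lysosomal thiol reductase of antigen processing, stopped at 45.3, 44.7 and 40.5 CPM at d3 in Nr6a1-/- cells, where wildtype reached 88.4, 83.3 and 85 CPM. Gap43, a growth cone protein, reached 39.3, 35.7 and 39.3 CPM against 69.6, 68.5 and 67.4 CPM. In Cldn4, a tight junction claudin, Nr6a1-/- libraries stayed flat with 21.7, 24.1 and 16 CPM at d2 and 16, 22.3 and 25.2 CPM at d3, where wildtype went from 19.8, 21 and 17.4 CPM to 43.2, 35.2 and 39.9 CPM. Rec8, the meiotic cohesin subunit, reached 14, 8.59 and 9.93 CPM against 28.3, 29.6 and 24.7 CPM. Rec8 had been below every wildtype library at d2 too (3.23, 6.22 and 5.58 against 10.1, 7.01 and 7.57 CPM), without a call there. None of these 4 genes had overlapping groups at d3, and each difference passed under every alternative. The lower set also held Tap1, a transporter that loads peptides for antigen presentation, with 12, 6.44 and 6.88 CPM at d3 in Nr6a1-/- and 21.6, 20.8 and 14 CPM in wildtype libraries. Its exons overlap Psmb9 on the opposite strand. Tapbp, the tapasin that binds it, overlapped between genotypes at d3 (27.2, 35.2 and 29 against 27.4, 29.6 and 51.1 CPM) and was not called. At d4 the lower genes included Ass1, the argininosuccinate synthase of arginine metabolism, with 7.82, 6.66 and 11.4 CPM in Nr6a1-/- and 15.9, 13 and 18 CPM in wildtype libraries (log2 difference -0.82 ± 0.21, adjusted p = 0.00383, and -0.96 without d4 wildtype replicate 2). Tfcp2l1, a transcription factor of naive pluripotency, stood at d3 at 15.2, 15.5 and 16 CPM against 22.1, 31.9 and 29.5 CPM.

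**Figure D3:**
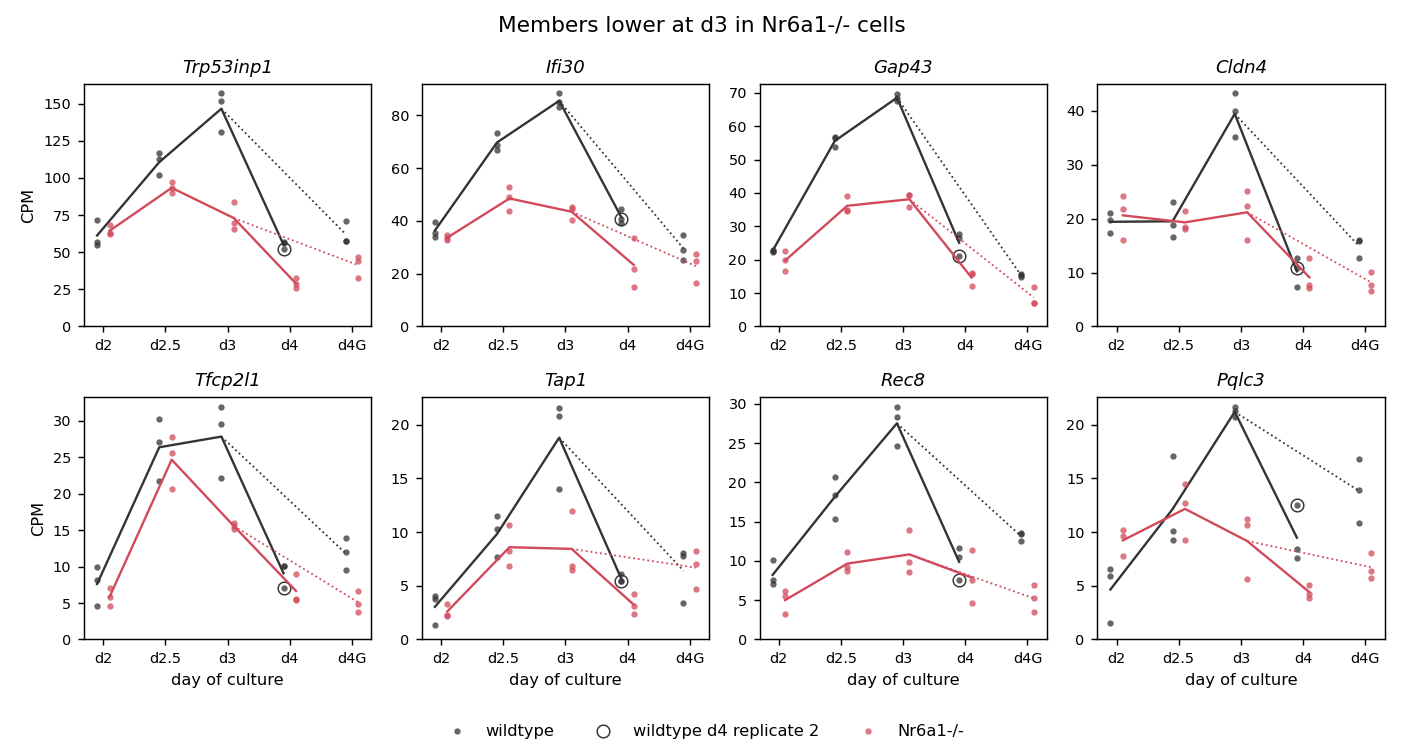
CPM of 8 genes (vertical, linear from 0) in each library by stage (horizontal, stages evenly spaced), with the same colours, ring and lines as the plot of slow-falling genes. At d3 the red Nr6a1-/- points lie below the dark grey wildtype points in all 8 panels, whereas at d2 the 2 genotypes overlap in all panels except Rec8 and Pqlc3.

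Several genes that rose less in Nr6a1-/- cells started higher there. At d2, 4 members passed as higher in Nr6a1-/- cells and 5 as lower, against 1.35% and 2.72% of all genes, with 1 in each direction without d2 wildtype replicate 3. The lower count was also 2 without d2 wildtype replicate 2 and 3 without d2 Nr6a1-/- replicate 2 or 3. Cntnap2, a neurexin-family adhesion protein, was 9.68, 12.8 and 11.5 CPM at d2 in Nr6a1-/- and 4.21, 5.01 and 3.95 CPM in wildtype libraries, yet ended close to wildtype at d3 (36.1, 37.4 and 36.7 against 33.6, 31.5 and 35.5 CPM), where no difference was called. Dsg2 (desmoglein 2) and Lgals3 (galectin 3) likewise began at 16.6, 14.6 and 17.1 CPM and at 9.68, 6.58 and 10 CPM in Nr6a1-/- cells, above every wildtype d2 library, though the d2 calls of both were lost without d2 wildtype replicate 3 (adjusted p up to 0.0677 and 0.124 over all alternatives). In total the d2 to d3 change was larger in Nr6a1-/- cells in 10 members and smaller in 7, where 1.19% and 1.09% of all genes were called, and its median difference over members was -0.39. The larger rises numbered 4 without d2 wildtype replicate 3 and 6 without d2 Nr6a1-/- replicate 2, and the smaller ones 4 without the latter or without d2 wildtype replicate 1. Both a larger rise and a smaller fall were called in 5 genes, among them Car3, Fst, Ldhb and Scn2b, of which the larger rise of Car3 was lost under 4 of 17 alternatives (adjusted p up to 0.102) and the smaller fall of Ldhb under 13 of 17 (adjusted p up to 0.336). Ldhb moved by smaller steps, with 493, 489 and 429 CPM at d3 and 182, 194 and 202 CPM at d4 in Nr6a1-/- cells against 332, 332 and 309 CPM and 105, 112 and 97.7 CPM in wildtype.

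How far the choice of genes shapes these counts can be seen by choosing them on other libraries. Applied to the Nr6a1-/- means, the same rule found 73 genes. The 41 genes in both lists are 48.2% of the wildtype list and 56.2% of the Nr6a1-/- list. At d3 the median ratio of Nr6a1-/- to wildtype was 0.931 over the wildtype list, and the median ratio of wildtype to Nr6a1-/- was 0.784 over the Nr6a1-/- list, so each list was lower in the genotype that did not choose it. Genes were then chosen on wildtype replicate 1 or replicate 3 alone and measured without that replicate and without d4 wildtype replicate 2. This left 2 wildtype libraries at d3 and 1 at d4, so that for d4 the spread comes from the other groups and the lone library is assumed to vary as they do. Of the 136 genes chosen on replicate 1, 8 (5.88%) had a smaller d3 to d4 fall in Nr6a1-/- cells and 0 a larger one, against 1.12% and 1% of all genes in that fit, with a median difference of 0.28. Of the 127 chosen on replicate 3, 6 (4.72%) had a smaller and 2 (1.57%) a larger fall, against 0.938% and 0.807%, with a median of 0.16. The level at d4 was called higher in 12.5% and lower in 7.35% of the 136 (all genes 4.95% and 5.04%) and in 11% and 7.09% of the 127 (all genes 3.79% and 4.33%), with medians of 0.08 and -0.01. At d3, 8.82% of the 136 were called higher and 18.4% lower, against 3.06% and 4.82% of all genes, and 8.66% and 15% of the 127, against 2.85% and 4.31%. In the list of 85 genes the d3 shares had been 20% and 29.4%.

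**Figure D4:**
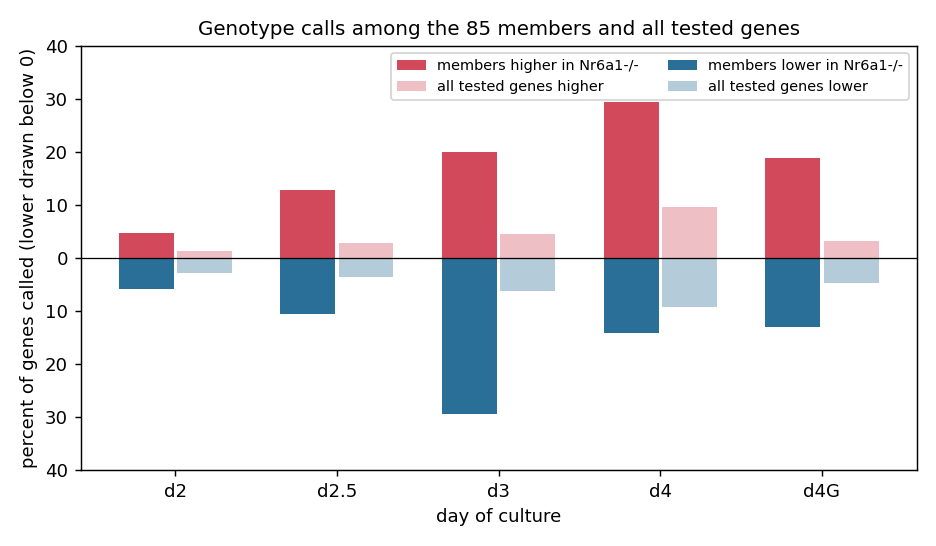
Percent of genes called in Nr6a1-/- against wildtype (vertical, higher above 0 and lower below it) at each stage (horizontal). Dark bars are the 85 members and pale bars all 12149 tested genes. The members' bars are longest at d3 for lower calls (29.4%) and at d4 for higher calls (29.4%), and d2, d3 and d4 use the wildtype values that chose the genes, whereas d2.5 and d4G do not.

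The d2.5 libraries, which the choice did not use, showed that genotype differences were present 12 h after the Wnt agonist. At d2.5, 11 members passed as higher in Nr6a1-/- cells and 9 as lower, against 2.86% and 3.59% of all genes. Ascl4, a basic helix-loop-helix factor with both TCF/LEF matches in its promoter, gave 140, 131 and 128 CPM in Nr6a1-/- and 48.5, 28.4 and 63.5 CPM in wildtype libraries (log2 difference 1.51 ± 0.22, adjusted p = 1.32e-05). By d3 it had dropped to 7.61, 8.59 and 14.1 CPM in Nr6a1-/- cells, below the 18.3, 20.4 and 23.1 CPM of wildtype, a difference that was called but was lost under 6 of 11 alternatives (adjusted p up to 0.174). Both genotypes had their highest Ascl4 levels at d2.5. At d4 they overlapped, with means of 17.5 CPM in Nr6a1-/- and 8.07 CPM in wildtype libraries, and a higher level in Nr6a1-/- cells was called (log2 difference 1.07 ± 0.35, adjusted p = 0.0277) but lost under 6 of 11 alternatives (adjusted p up to 0.27). Ascl4 exons overlap Rtcb, a tRNA ligase gene, on the opposite strand.

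Fst (305, 315 and 322 against 207, 184 and 190 CPM), Mixl1 (116, 119 and 123 against 57.2, 39.8 and 83.5 CPM) and Rtl8b (62.8, 55 and 51.4 against 34.6, 34.6 and 33.8 CPM) were also higher at d2.5 in Nr6a1-/- cells, with no overlap and under every alternative. Dkk4, a secreted Wnt inhibitor that Wnt signalling induces, measured 48.6, 48.6 and 40.9 CPM against 28.3, 14.5 and 29.7 CPM, and Epha2, an ephrin receptor, 48.6, 62.8 and 57.9 CPM against 40.8, 33.1 and 41 CPM. Their calls, and those of Scn2b and Dock11, were lost when d2.5 wildtype replicate 2, the lowest d2.5 wildtype library for Dkk4, Epha2, Mixl1, Scn2b and Ascl4, was left out (adjusted p 0.0825 for Dkk4, 0.0878 for Scn2b and 0.0733 for Dock11, and up to 0.103 for Epha2), which left 7 members higher and 4 lower. Among the 9 lower genes, Gap43 (39, 34.6 and 34.8 against 56.7, 53.7 and 56.3 CPM) and Lefty1, a secreted Nodal inhibitor (37.9, 39.6 and 38.4 against 56.7, 68.2 and 64.5 CPM), passed under every alternative. The other 7 were each lost under at least 1 alternative.

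Within Nr6a1-/- cells, 55 members had risen and 1 had fallen from d2 to d2.5, where 12.9% and 11.2% of all genes were called. The order of the genes in time was alike in the 2 genotypes: over the 85 members the ratio of d2.5 to d3 level had a Spearman correlation of 0.69 between wildtype and Nr6a1-/-, given as a description over genes of the same libraries. In Nr6a1-/- cells 34 members were at or above their d3 mean at d2.5, against 19 in wildtype, and 14 were so in both. The wildtype number rests on d3 values that chose the genes. The 1 falling gene, Arl4d, a small GTPase, dipped from 2.3, 4.75 and 6.32 CPM at d2 to 1.91, 0.714 and 1.09 CPM at d2.5 and then jumped to 20.4, 33.9 and 28.6 CPM at d3. Its dip was lost when d2 Nr6a1-/- replicate 3 or d2.5 Nr6a1-/- replicate 2 was left out (adjusted p up to 0.0758).

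With Gdf11, some of these genes were higher on d4 than without it and others were lower. The d4 and d4G groups are parallel cultures from d3, not successive stages. In Nr6a1-/- cells, 21 members were called higher and 16 lower at d4G than at d4, where 8.45% and 9.59% of all genes were called. Lefty1 showed the widest difference. In Nr6a1-/- cells it was at 4.3, 2.85 and 5.07 CPM at d4 and at 281, 260 and 281 CPM at d4G (log2 difference 5.97 ± 0.16, adjusted p = 4.7e-26). In wildtype these groups gave 3.36, 4.88 and 2.9 CPM at d4 and 69.2, 68.5 and 79.4 CPM at d4G. With Gdf11, Lefty1 was thus higher in Nr6a1-/- than in wildtype cells (log2 difference 1.96 ± 0.11, adjusted p = 1.7e-16), whereas it had been lower at d2.5.

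At d4G, 16 members passed as higher in Nr6a1-/- cells and 11 as lower than in wildtype, against 3.28% and 4.63% of all genes. In the lists chosen on wildtype replicate 1 or replicate 3 alone, lower calls were instead the more common at d4G. The higher count was 10 without d4G wildtype replicate 3, and the lower count was 5 without d4G Nr6a1-/- replicate 2, and 7 by DESeq2 or without d4G wildtype replicate 1 or 2 or d4G Nr6a1-/- replicate 1. Ptgs1, which encodes cyclooxygenase-1, gave 30.4, 36.9 and 34.3 CPM against 7.69, 12.7 and 9.11 CPM. Mixl1 gave 269, 211 and 221 CPM against 123, 150 and 142 CPM, and Ddit4 gave 139, 138 and 134 CPM against 68.2, 54.1 and 52.1 CPM. These groups did not overlap and the calls passed under every alternative. Gad1, a glutamate decarboxylase, Ets1, a transcription factor, Nfic and Cdh3 (P-cadherin) were higher with Gdf11 than without it in Nr6a1-/- cells too. Gad1 was at 27.6, 30.6 and 25.1 CPM at d4G against 4.69, 2.38 and 4.23 CPM at d4, and Ets1 at 73.2, 66.8 and 64.7 CPM against 3.13, 7.14 and 4.23 CPM. Nfic and Cdh3 had not passed either the rise or the fall in Nr6a1-/- cells.

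In the opposite direction, several genes that fell slowly or rose from d3 to d4 without Gdf11 were lower with it. In Nr6a1-/- cells at d4G Aplnr was at 2.85, 5.73 and 7.48 CPM, Fst at 34.2, 29.3 and 35.6 CPM, Scn2b at 20.9, 9.55 and 9.24 CPM and Grsf1 at 181, 174 and 194 CPM, each below all of its d4 libraries and each called. For Fst and Scn2b the d4G difference between genotypes was not called, although the Fst groups did not overlap (44.2, 44.8 and 42.1 CPM in wildtype). Slc2a3 was the most abundant member called lower at d4G in Nr6a1-/- cells, with 73.2, 60.5 and 74.8 CPM against 165, 137 and 117 CPM in wildtype (log2 difference -0.95 ± 0.14, adjusted p = 7.02e-06).

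**Figure D5:**
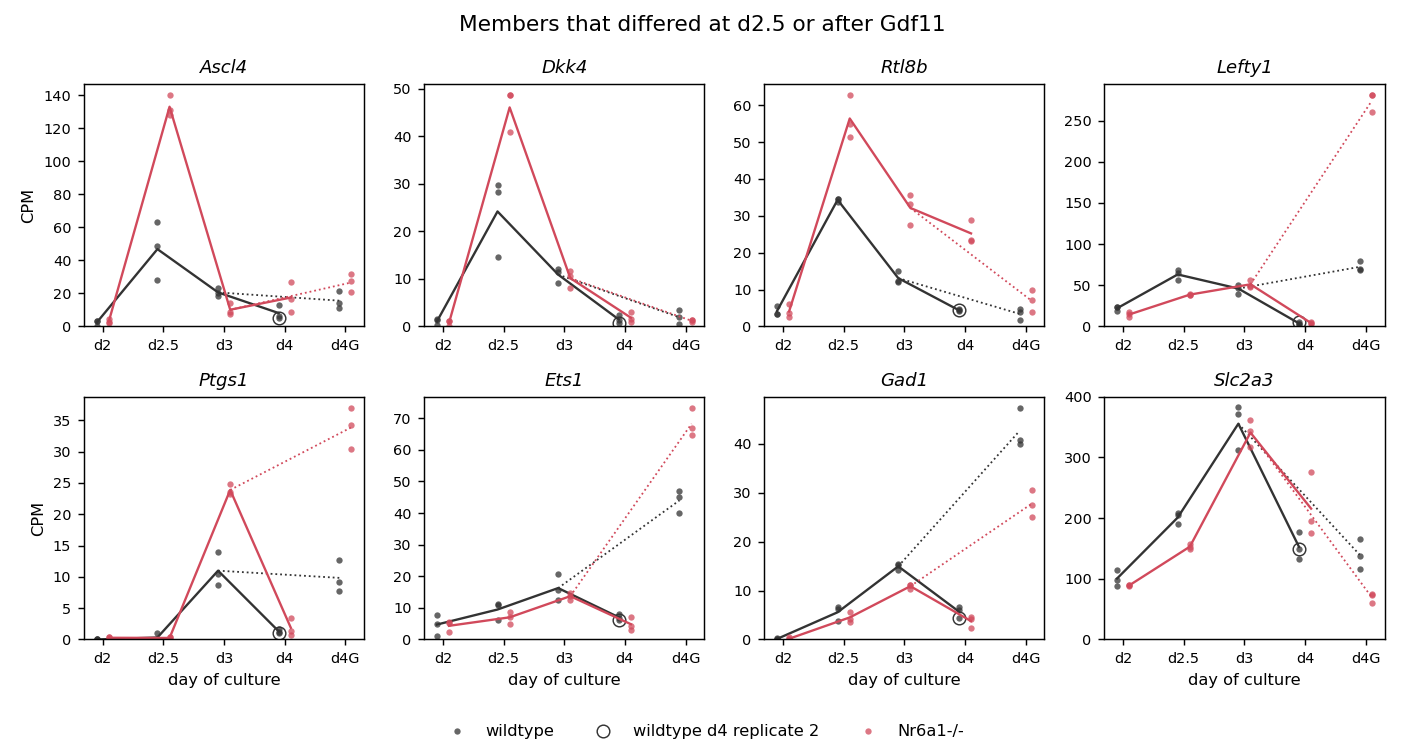
CPM of 8 genes (vertical, linear from 0) in each library by stage (horizontal, stages evenly spaced), with the same colours, ring and lines as the plot of slow-falling genes. Ascl4, Dkk4 and Rtl8b peak at d2.5 and higher in Nr6a1-/- libraries, and the dotted lines of Lefty1, Ptgs1 and Ets1 climb to higher d4G levels in Nr6a1-/- than in wildtype libraries, while those of Gad1 and Slc2a3 end lower in Nr6a1-/- libraries.

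Lists of related genes put these members in context. Counts on them are to be read against all genes, of which 2.86% were called higher and 3.59% lower at d2.5, 4.49% and 6.29% at d3, and 9.72% and 9.17% at d4. Trp53inp1 is the single member on a list of 19 tested cell cycle exit and p53 target genes, of which 0 were higher and 10 lower at d3 in Nr6a1-/- cells, and 1 higher and 12 lower at d4. Slc2a3 is the single member among 19 tested glycolysis and hypoxia genes, of which 6 were higher and 2 lower at d3 and 15 higher and 0 lower at d4. Mixl1 and Aplnr belong to 21 tested streak and mesendoderm genes, of which 8 were higher and 10 lower at d4 with a median log2 difference of -0.73. Fst and Lefty1 belong to 18 tested Nodal, activin and BMP genes, of which 2 were higher and 6 lower at d4. Without d4 wildtype replicate 2 these became 3 and 3, and the other d4 counts 7 and 8 for streak and mesendoderm, 1 and 11 for cell cycle exit and p53, and 13 and 0 for glycolysis and hypoxia genes. Grsf1 is among 20 tested NMP and presomitic genes, of which 8 were higher and 2 lower at d3 and 7 higher and 6 lower at d4, also without d4 wildtype replicate 2. Dkk4 is among 23 tested Wnt targets and feedback genes, of which 8 were higher and 1 lower at d2.5 and 4 higher and 0 lower at d3. Epha2, Ephb3 and Ntn1 are among 26 tested axon guidance and Eph genes, of which 6 were higher and 4 lower at d3. Of these 3 members Ephb3, a receptor for ephrin-B ligands, was the 1 called lower at d3, at 4.81, 3.01 and 3.06 CPM against 13, 9.25 and 12.4 CPM (log2 difference -1.67 ± 0.32, adjusted p = 0.000318).

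Col1a1 and Col1a2 are also markers of feeder fibroblasts, on which the stem cells are kept before differentiation. The other 5 feeder markers (Col3a1, Postn, Thy1, Lum and Dcn) summed to 6.48 to 11.6 CPM at d3 and 8.39 to 14.6 CPM at d4 in wildtype, and to 12.9 to 20.2 CPM and 3.38 to 7.61 CPM in Nr6a1-/- libraries, with Lum at 0 in every d3 library. Col1a2 followed the peak, at 28.3, 31 and 33.1 CPM at d3 in wildtype and 38.9, 57.1 and 38.6 CPM in Nr6a1-/- libraries. On chromosome 8 lie 5 members (Ifi30, Tex15, Cdh3, Nudt7 and Dkk4), whose 655 tested genes were lower in Nr6a1-/- cells with a median log2 difference of -0.37 at d3 and -0.29 at d4, the latter with or without d4 wildtype replicate 2. All 5 members were below 0 at d3 and 3 of them were called lower. The called genes were Ifi30, Tex15 and Cdh3, with d3 ratios of mean CPM in Nr6a1-/- over wildtype libraries of 0.508, 0.66 and 0.548. For Ifi30 the log2 difference was -0.99 ± 0.15. The part of the chromosome-wide shift in the lower levels of these genes was not tested.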

How the data were processed

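The data are 3′ poly(A)-primed RNA-seq libraries with molecular identifiers, from 2 genotypes at 5 stages with 3 replicates each. The authors deposited raw counts per gene for 30 libraries, and the submitters' processing notes name STAR, edgeR and the mm10 build; versions are not given in the sources used here. Each library's group came from its labels. In the deposited count table, 26 symbols had been turned into dates and 2 were repeated. The 5 tables of the authors' own comparisons (log2 fold changes, p-values and adjusted p-values) were not used.

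CPM was the count divided by the library's total count. A gene was tested when 2 libraries of 1 group each held more than 10 counts and more than 2 CPM of it, which left 12149 genes. All 30 libraries entered 1 fit over 10 groups (edgeR 4.0.16, R 4.3.3, TMM scaling, quasi-likelihood test, 20 residual degrees of freedom, Benjamini-Hochberg adjusted p below 0.05). Differences between genotypes in a change were interaction contrasts of that fit. Genotype contrasts at d2, d3 and d4, and these interactions, use wildtype values that chose the members. For members their adjusted p-values are therefore descriptions. Tests were two-sided and checked on simulated data.

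The members, gene lists and tests were chosen with earlier results of these data known. The rule for named genes took the 10 most abundant members, those on a gene list, up to 6 per comparison and direction with the largest changes and no overlap, those nearest a threshold, up to 8 that missed the rise or the fall in Nr6a1-/- cells, and those on chromosome 8. Other genes named here were chosen after their values were seen. Alternatives were DESeq2 1.42.0, RLE size factors, no filter, a replicate block, only the libraries compared, each library left out, other thresholds of the rule, and choosing the members on 1 wildtype replicate and measuring them on the rest. Fitted folds against a group with 3 or fewer pooled counts depend on the prior count, so levels are given for those genes. Results for some genes are not reported here.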

Additional observations from a re-analysis of the deposited data

Results flagged for a closer look

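These results are listed because the same change differed between wildtype and Nr6a1-/- cells in a test of the difference itself (the interaction contrast of the edgeR fit, adjusted p below 0.05, 3 libraries per group). Values are Nr6a1-/- minus wildtype differences in log2 change, and wildtype values had a part in choosing the genes.

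For the change from d2 to d3 the difference was 1.82 for Scn2b, 1.20 for Mcc, 1.17 for Dock11, 1.15 for Peg10 and 1.12 for Fst, all rising more in Nr6a1-/- cells. It was -2.08 for Pqlc3, -1.72 for Lgals3, -1.38 for Dsg2, -1.24 for Cntnap2, -1.04 for Trp53inp1 and -0.97 for Cldn4, which rose less. The calls of Scn2b, Fst, Pqlc3, Lgals3, Dsg2 and Trp53inp1 passed under every alternative, while those of Mcc, Dock11, Peg10, Cntnap2 and Cldn4 were lost under 3, 9, 2, 4 and 12 of 17. Cntnap2, Dsg2 and Lgals3 began higher at d2 in Nr6a1-/- cells. So did Pqlc3, with 9.68, 10.2 and 7.81 CPM against 5.89, 1.5 and 6.58 CPM in wildtype, though its d2 difference was not called.

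For the change from d3 to d4 the difference was 2.19 for Aplnr, 2.11 for Ascl4, 2.04 for Ddit4, 2.02 for Scn2b, 1.93 for Mixl1 and 1.93 for Fst, which fell less or rose. Ascl4 began from a lower d3 level in Nr6a1-/- cells. The difference was -1.21 for Col1a2 and -0.92 for S100a10, which fell more. Of these calls that of Col1a2 was lost under 7 of 17 alternatives and the others passed under each. Without d4 wildtype replicate 2 the values were 2.09 for Aplnr, 1.81 for Ascl4, 2.01 for Ddit4, 2.20 for Scn2b, 2.12 for Mixl1, 1.92 for Fst, -1.34 for Col1a2 and -0.83 for S100a10.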

How the results depend on the processing

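None of the 394 called results for members changed sign under any alternative. Of 110 results for named genes, 76 passed under every alternative. Depth limits genes below about 2 CPM, where 3 counts are 0.813 to 1.91 CPM. When the members were chosen on wildtype replicate 1 alone the rule gave 136 genes, and on replicate 3 alone 127; with a d3 minimum of 20 CPM it gave 50, and with 3-fold rise and fall 19. Of the 136 and the 127 genes respectively, calls in Nr6a1-/- against wildtype were 3 and 1 higher and 5 and 3 lower at d2. At d3 they were 12 and 11 higher and 25 and 19 lower. At d4G they were 10 and 13 higher and 17 and 15 lower, with median log2 differences of -0.13 and -0.16. Lower calls were thus the more common at d4G in both lists, whereas the main list had 16 higher and 11 lower. For the level at d4, with a lone d4 wildtype library, the medians were 0.08 and -0.01. For the genotype difference in the d2 to d3 change the medians were -0.25 and -0.29, against 0.01 over all genes in both fits. The more common direction of its calls differed between the lists. For the d3 to d4 change, with the same lone d4 wildtype library, the median differences were 0.28 and 0.16. Within Nr6a1-/- cells, 4 of the 136 were lower at d2.5, 22 of the 136 higher at d4G than at d4, and 1 of the 127 higher at d4 than at d3. DESeq2 called 7 members lower at d4G, and a fit of only the libraries compared called 2 members lower at d2.5 than at d2 in Nr6a1-/- cells. The cause was not tested.

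With 1 library left out at a time, counts in Nr6a1-/- against wildtype ranged from 1 to 4 higher and 1 to 5 lower at d2 (both lowest without d2 wildtype replicate 3), 7 to 15 and 3 to 6 at d2.5 (7 higher without d2.5 wildtype replicate 2, 3 lower without d2.5 Nr6a1-/- replicate 3), 10 to 14 and 17 to 21 at d3 (10 without d3 Nr6a1-/- replicate 2, 11 without d3 wildtype replicate 3), 19 to 25 and 7 to 11 at d4 (7 without d4 Nr6a1-/- replicate 2), and 10 to 15 and 5 to 9 at d4G (10 without d4G wildtype replicate 3, 5 without d4G Nr6a1-/- replicate 2). The d2 to d3 change was called larger in 4 to 10 members (4 without d2 wildtype replicate 3, 6 without d2 Nr6a1-/- replicate 2) and smaller in 4 to 6 (4 without d2 wildtype replicate 1 or d2 Nr6a1-/- replicate 2), and the d3 to d4 fall smaller in 11 to 16 and larger in 1 to 2. In Nr6a1-/- cells, 63 to 66 members rose to d3, 58 to 60 fell and 2 to 3 rose to d4, and 0 to 2 were lower at d2.5 than at d2.

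With the replicate number as a block, the counts were those of the fit without it except for 8 members lower at d2.5, 15 higher and 10 lower at d4G, and 6 with a smaller d2 to d3 change. Deviations of same-numbered libraries correlated between -0.11 and 0.134, so the numbers do not pair the samples.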
